A study of Mus musculus with 12 samples.

Results

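The S100 proteins that skin makes were followed in periocular skin through 10 genes, *S100a8*, *S100a9*, *S100a7a*, *S100a3*, *S100a4*, *S100a6*, *S100a10*, *S100a11*, *S100a14* and *S100a16*, chosen by symbol from a count table of 21247 genes. RNA-seq was performed on periocular skin biopsies of 6-week-old mice on a BALB/c background, with 4 libraries labelled ft/ft and 4 labelled ft/ftMyD88-/-. Both groups are homozygous for ft, a spontaneous point mutation that abolishes the function of filaggrin, a structural protein of the outer epidermis, and both are described as free of the *ma* mutation of *Tmem79*. The ft/ftMyD88-/- mice also lack MyD88, the adaptor of toll-like and IL-1 family receptors, in the whole body, and had spontaneously inflamed periocular skin. WT skin is not analysed here.

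S100 proteins are small calcium-binding proteins with paired EF-hands that mostly work as dimers. Inside the cell they bind annexins, myosin and other partners when calcium rises, and outside it several act as alarmins or bind metals away from microbes. Keratinocytes express many of them from a gene group beside the epidermal differentiation complex, and S100A8 with S100A9 (calprotectin), which signals to TLR4 and RAGE, is made by neutrophils, by monocytes and by keratinocytes of inflamed epidermis.

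Before the members are described, some checks of the labels bear on every comparison. *Myd88* stood at 32.1, 36.5, 28.7 and 25.4 CPM (counts divided by the TMM-scaled library size and set to a common scale) in ft/ft replicates 1 to 4 and at 38.8, 48.8, 32.2 and 44.9 CPM in those labelled ft/ftMyD88-/-, so the targeted gene was not lower where it should be absent (log2 fold change 0.42, SE 0.142, edgeR adjusted p = 0.0484). Whether reads could come from parts of the gene outside the deletion is not given in the sources used here, and directions below are those between the labels, whatever the genotype of the libraries. *Tmem79* was lower in the libraries labelled ft/ftMyD88-/- (59.2 ± 2.92 against 16.4 ± 2.1 CPM, SD, n = 4; log2 fold change -1.85, edgeR adjusted p = 5.08e-07). The mice are stated to be female, but *Xist*, made from the inactive X chromosome, had at most 1 count in each ft/ft library and 567 to 1964 counts in the other 4, and the Y-linked *Ddx3y* stood at 65 ± 8.97 against 0.147 ± 0.225 CPM (SD, n = 4). Genotype and sex therefore cannot be told apart here. Total counts per library lay between 18941705 and 29255129 for ft/ft and between 15802957 and 27037997 for ft/ftMyD88-/-, and the 3 counts that a count of 0 allows equal 0.102 to 0.183 CPM. The labels name no separate cultures or litters, and p-values measure the spread between these libraries.

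All 10 members passed the minimum of 10 counts and entered the quasi-likelihood test of edgeR, which covered 20454 genes. Of the 10, 1 was called higher in the libraries labelled ft/ftMyD88-/- (*S100a14*), against 10.9% of all tested genes, and 0 were called lower, against 12.3%. Without adjustment, 6 members had an edgeR p under 0.05, 0 of them lower. The share of all tested genes under that unadjusted cutoff was not computed. It is at least the 23.3% called in either direction after adjustment, so this count has no exact background. DESeq2 called 6 members higher (15.2% of its genes) and 0 lower (14.7%), and limma voom called 4 higher (10.7%) and 0 lower (12.2%). Within edgeR, RLE normalization gave 2 members higher (11.4% of genes), the filterByExpr filter 4 (14.2%) and scaling by library size alone 5 (22.7%). That last scaling moved the median of all genes up by 0.18 on the log2 scale and put 4638 of 5964 calls in the higher direction, against 2239 of 4764 with TMM. The fitted log2 fold change was above 0 for 8 of the 10 members with a median of 0.41, beside 51% above 0 and a median of 0.01 over all tested genes. In 3 members (*S100a8*, *S100a9* and *S100a7a*) the lowest library labelled ft/ftMyD88-/- was above the highest ft/ft library, which held for 12.5% of tested genes. The members thus fell into 4 patterns, which are described in turn: the calprotectin pair, *S100a7a* and *S100a3*, the epithelial *S100a14* and *S100a16*, and 4 annexin- or myosin-binding members.

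**Figure D1:**
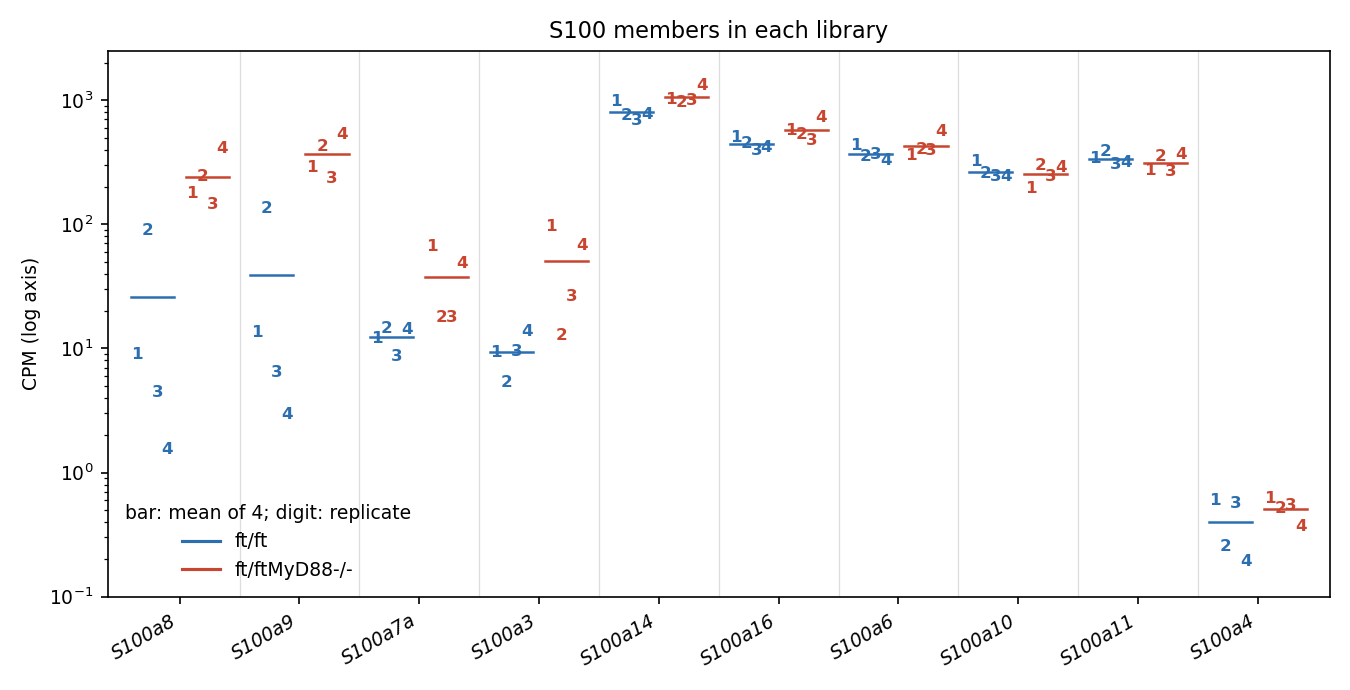
CPM of the 10 members on a log axis, one digit per library (replicate number; blue ft/ft, red ft/ftMyD88-/-), with a bar at the mean of the 4 libraries of a group. *S100a8* and *S100a9* spread over 1.53 to 88.4 and 2.91 to 134.1 CPM in ft/ft, while *S100a10* and *S100a11* lie at nearly the same height in both groups.

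*S100a8* and *S100a9* encode the subunits of calprotectin, the alarmin that withholds zinc and manganese from bacteria and fungi. *S100a8* was at 8.96, 88.4, 4.41 and 1.53 CPM in ft/ft replicates 1 to 4 and at 176.2, 244.0, 144.9 and 404.7 CPM in ft/ftMyD88-/- replicates 1 to 4. All 4 libraries labelled ft/ftMyD88-/- were above all 4 ft/ft libraries, but ft/ft replicate 2 was far above its own group and nearest to the other one. *S100a9* was at 13.5, 134.1, 6.41 and 2.91 CPM in ft/ft and at 288.3, 420.3, 234.4 and 528.6 CPM in ft/ftMyD88-/-, with the same ft/ft library high and the same replicate 4 highest of all.

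The mean of *S100a8* was 25.8 ± 41.8 CPM in ft/ft against 242.5 ± 115.8 CPM (SD, n = 4), a 9.39-fold ratio of means, and that of *S100a9* was 39.2 ± 63.4 against 367.9 ± 132.6 CPM, a 9.38-fold ratio. With the SD of ft/ft above its own mean, neither gene passed edgeR's adjusted test (*S100a8* log2 fold change 3.22, SE 1.29, adjusted p = 0.126; *S100a9* 3.22, SE 1.28, adjusted p = 0.123). Both were called by DESeq2 (adjusted p = 0.0193 and 0.0159) and by limma voom (0.00469 and 0.00425), and the two-sided exact permutation test on log2 CPM gave p = 0.0286 for each, the smallest that 4 against 4 allows. Leaving out ft/ft replicate 2 raised the log2 fold changes to 5.61 (edgeR adjusted p = 0.00849) and 5.60 (edgeR adjusted p = 0.00517), where 9.93% of tested genes were called higher, so this single library decided the edgeR call. It was the highest ft/ft library for both genes, so higher fold changes were fixed by leaving it out and are given as a description. The other 7 libraries, left out in turn, gave no edgeR call of either gene.

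The pair moved together from library to library. The ratio of *S100a8* to *S100a9* in CPM, not corrected for transcript length, was 0.634 ± 0.0731 in ft/ft and 0.644 ± 0.0829 in ft/ftMyD88-/- (SD, n = 4; two-sided exact permutation test, p = 0.857), and stayed between 0.526 and 0.766 in the 8 libraries while *S100a8* itself ran from 1.53 to 404.7 CPM. The summed CPM of the 10 members was 2022 to 2608 in ft/ft and 2781 to 4296 in ft/ftMyD88-/-, and these ranges did not overlap. *S100a8* and *S100a9* made up 0.86, 9.13, 0.535 and 0.212% of it in ft/ft replicates 1 to 4. In ft/ftMyD88-/- replicates 1 to 4 they made up 15.4, 20.5, 13.6 and 21.7%. The lack of overlap between the sums rested on the pair. In ft/ft replicate 1 the pair gave 22.4 of 2608 CPM, and in ft/ftMyD88-/- replicate 3 it gave 379.4 of 2781 CPM. The sums of the other members therefore overlapped between the groups.

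The genes lie on opposite strands of chromosome 3, *S100a8* at chr3:90669071-90670034 on the plus strand and *S100a9* at chr3:90692630-90695721 on the minus strand (GRCm38.p6). Because they varied together, the sequences before their RefSeq starts are shown, 5′ to 3′ on the gene's own strand, with capitals marking a match to the C/EBP motif TTNNGCAA on either strand. That for *S100a8* (chr3:90668821-90668977) ends 93 bases before the start and that for *S100a9* (chr3:90695722-90695971) ends at it.

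S100a8: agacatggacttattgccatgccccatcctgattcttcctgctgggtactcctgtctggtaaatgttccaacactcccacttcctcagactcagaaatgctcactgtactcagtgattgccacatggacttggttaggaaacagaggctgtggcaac

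S100a9: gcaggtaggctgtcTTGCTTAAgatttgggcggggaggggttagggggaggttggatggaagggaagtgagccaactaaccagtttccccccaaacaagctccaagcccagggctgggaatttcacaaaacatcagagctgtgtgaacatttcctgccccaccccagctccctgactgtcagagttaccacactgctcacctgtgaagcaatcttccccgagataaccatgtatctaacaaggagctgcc

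The C/EBP match of *S100a9* began 236 bases before the start, and 9.56% of 32851 RefSeq promoters of the same length (250 bases before the start) hold such a match. *S100a8* instead held the TATA box TATAAA on its own strand, 30 bases before the start, as did *S100a4* 31 bases before its start. *S100a3* held it 52 bases before a RefSeq start inside the gene, in a window from chr3:90588313. This motif was in 3 of 12 promoters of the 8 members with a RefSeq entry and in 7.59% of all. The sites of *S100a8*, which had the highest ratio of SD to mean in ft/ft, and of *S100a4*, which had the fewest counts, are shown with the motif in capitals.

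S100a8 (chr3:90669031-90669056, plus strand): agctttcctcTATAAAagcagctgac

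S100a4 (chr3:90603729-90603754, plus strand): cctggcagggTATAAAtaggtcagat

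Among the other motifs, AP-1 (TGANTCA, both strands) was matched in 2 member promoters, those of *S100a11* and *S100a16*, and in 6.75% of all. STAT (TTCNNNGAA, both strands) was matched in that of *S100a7a* and in 7.02% of all, and the NF-kB motif (both strands) in 0 of the 12 and in 1.41% of all. The matched windows of *S100a16* (from chr3:90540896) and *S100a7a* (from chr3:90654052) likewise lay before a RefSeq start inside the gene. These matches are letters in a window and were not examined for binding.

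By root mean square difference of centred log2 CPM over the 8 libraries, the gene nearest to *S100a8* among 13507 was *S100a9* (0.147), followed by *Uox* (0.758), the beta-defensin gene *Defb3* (0.765), *Trem1*, a receptor of myeloid cells (0.873), and the cornified envelope gene *Sprr2d* (1 log2 unit). These are descriptions over libraries that share the group difference. *Defb3* was at 0.429, 13, 0.446 and 0.575 CPM in ft/ft and at 36.5, 45.1, 32.6 and 69.7 CPM in ft/ftMyD88-/-. As with calprotectin, ft/ft replicate 2 stood apart from its group, while the order of the other 3 ft/ft libraries differed from that of *S100a8*. Of 17 listed genes that keratinocytes induce on IL-17, *Il36a*, *Il36b* and *Il36g* were absent from the count table under these symbols. Of the other 14, edgeR called 6 higher (*Lcn2*, *Cxcl1*, *Cxcl2*, *Cxcl5*, *Ccl20* and *Il17c*) and 0 lower, beside 10.9% and 12.3% of all tested genes. The median log2 fold change of the 14 was 1.91. Their summed CPM was 68.3, 271.3, 57.4 and 54.2 in ft/ft and 276.0 to 468.3 in ft/ftMyD88-/-. The ligands *Il17a* (0.11 ± 0.129 against 2.33 ± 0.819 CPM, SD, n = 4; log2 fold change 4.27, edgeR adjusted p = 0.000537) and *Il17f* (0.194 ± 0.334 against 3.75 ± 1.37 CPM; log2 fold change 4.08, edgeR adjusted p = 0.00834) were higher, and both calls held in all 8 fits with 1 library left out. In ft/ft replicates 1 to 4, *Il17a* had 0, 8, 2 and 1 counts and *Il17f* had 2, 19, 0 and 0. Only replicate 2 was above the floor of 3 counts, so the sizes of these fold changes are uncertain. The receptor *Il17ra* was higher as well (log2 fold change 0.36, edgeR adjusted p = 0.0373), but its call held in 2 of those 8 fits, without ft/ftMyD88-/- replicate 3 or 4 (adjusted p up to 0.11 in the others). The receptor *Il17rc* was lower (log2 fold change -0.38, edgeR adjusted p = 0.0047).

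Markers of the cells known to make calprotectin were read beside it. In bulk skin, fewer cells of a type and less RNA per cell cannot be told apart. The edgeR calls below stand beside 10.9% of all tested genes called higher and 12.3% called lower. Of 11 neutrophil genes tested, 3 were called higher (*Csf3r*, *Cd177*, *Lcn2*) and 3 lower (*Mpo*, *Prtn3*, *Il1r2*). In the 8 fits with 1 library left out, the call held in 2 for *Csf3r*, 3 for *Cd177*, 2 for *Lcn2* and 6 for *Mpo*. The summed CPM of the listed genes was 145.6 to 258.5 in ft/ft and 137.8 to 525.9 in ft/ftMyD88-/-. Within these sums, *Ltf* stood at 36.3 to 111.8 CPM in ft/ft and 34.7 to 362.7 CPM in ft/ftMyD88-/-. *Lcn2* stood at 8.63 to 34.8 and 35.2 to 93.9 CPM. *Csf3r*, the G-CSF receptor, was at 1.59, 6.15, 2.62 and 2.76 CPM in ft/ft and at 8.68, 14.1, 5.95 and 6.59 CPM in ft/ftMyD88-/-, again with ft/ft replicate 2 highest of its group. Granule genes differed widely in level. *Ngp* and *Elane* stayed at or under 4 counts in every library, *Camp* at or under 6 and *Mmp8* at or under 24, whereas *Mpo* had 68 to 510 counts in ft/ft and 15 to 100 in ft/ftMyD88-/-. *Ltf* (lactoferrin), which epithelia also make, had 651 to 3075 counts in ft/ft and 1019 to 8276 in ft/ftMyD88-/- (log2 fold change 1.65, edgeR adjusted p = 0.177), and *Lcn2* is also among the IL-17 response genes above. Of 13 macrophage and monocyte genes, 4 were called higher (*C1qa*, *Lyz2*, *Fcgr1*, *Ccr2*), with sums of 644.1 to 845.7 CPM in ft/ft and 887.8 to 1213 CPM in ft/ftMyD88-/-. Without *Lyz2* these sums overlapped, at 401.4 to 578.5 and 486.9 to 753.8 CPM. Of the macrophage and monocyte genes not called, *Adgre1*, *Csf1r*, *Cd68* and *Ly6c2* had log2 fold changes of -0.03, -0.21, -0.11 and -0.13. The others, *Cd14*, *Cd163*, *Mrc1*, *C1qb* and *C1qc*, had 0.71, 0.48, 0.27, 0.24 and 0.14. Over the 13 genes the median was 0.27, and 0 were called lower. Of 9 genes of hyperproliferative keratinocytes, 3 were called higher (*Sprr1b*, *Il1f6*, *Stfa1*), and *Krt16*, the keratin of stressed epidermis, was at 67.2, 252.8, 46.9 and 49.9 CPM in ft/ft against 356.8, 701.6, 370.3 and 1074 CPM (log2 fold change 2.58, edgeR adjusted p = 0.053). The part of each of these cell types in the calprotectin difference was not tested.

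**Figure D2:**
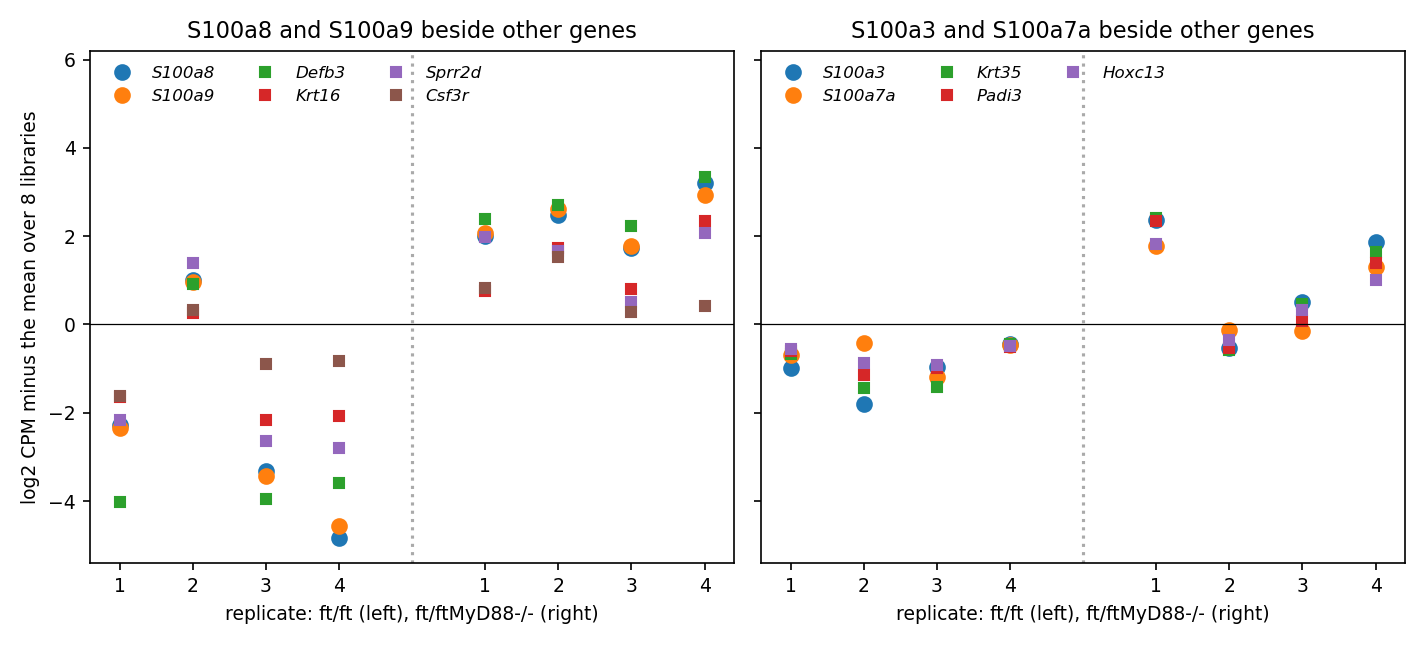
Log2 CPM of each gene in each library minus that gene's mean over the 8 libraries, for *S100a8* and *S100a9* (left panel) and for *S100a3* and *S100a7a* (right panel), circles being members and squares other genes. On the left, ft/ft replicate 2 sits above the other 3 ft/ft libraries, and on the right, ft/ftMyD88-/- replicates 1 and 4 sit above replicates 2 and 3.

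*S100a7a* and *S100a3* varied in another way, within the libraries labelled ft/ftMyD88-/-. *S100a7a*, the mouse relative of psoriasin, an antimicrobial and leukocyte-attracting protein of keratinocytes, was at 12, 14.5, 8.53 and 14.1 CPM in ft/ft and at 66.5, 17.8, 17.6 and 47.9 CPM in ft/ftMyD88-/-. The groups did not overlap, but replicates 2 and 3 of the second group were close to the highest ft/ft library. *S100a3*, a protein of the hair cuticle, was at 9.34, 5.31, 9.48 and 13.6 CPM in ft/ft and at 95.9, 12.8, 26.3 and 67.7 CPM in ft/ftMyD88-/-. Here replicate 2 lay below ft/ft replicate 4, so the groups overlapped, and replicates 1 and 4 were again the highest.

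Neither gene passed edgeR's adjusted test. The means of *S100a7a* were 12.3 ± 2.74 and 37.4 ± 24 CPM (SD, n = 4; log2 fold change 1.60, SE 0.508, edgeR adjusted p = 0.0668), and those of *S100a3* were 9.45 ± 3.41 and 50.7 ± 38.2 CPM (log2 fold change 2.42, SE 0.701, edgeR adjusted p = 0.0527). The exact permutation test gave p = 0.0286 for *S100a7a* and 0.0571 for *S100a3*. DESeq2 called both (adjusted p = 0.00725 and 0.00142), and limma voom called *S100a3* (0.04) but not *S100a7a* (0.0544). edgeR called both with the filterByExpr filter (adjusted p = 0.0406 for *S100a3* and 0.0481 for *S100a7a*) and without ft/ftMyD88-/- replicate 2 (0.0193 and 0.0401), and *S100a7a* also without replicate 3 (0.0339). Without replicates 1 and 4 the log2 fold changes were 1.05 and 0.52. Those libraries were taken out, after seeing the data, for their high hair keratin sums and were also the highest for both genes, so lower values were fixed by that choice and are given as a description.

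Replicates 1 and 4 were also the ones with most hair shaft transcripts. The summed CPM of 18 genes of the hair shaft and cuticle was 862.5, 960.4, 997.4 and 1276 in ft/ft and 10341, 1060, 1656 and 4490 in ft/ftMyD88-/- replicates 1 to 4. edgeR called 3 of these 18 higher (*Hoxc13*, *Msx2*, *Lef1*), beside 10.9% of all genes it tested, and DESeq2 called 18, beside 15.2%. The 5 genes nearest to *S100a3* over the 8 libraries were *Krt73* (0.193), *Krt35* (0.247), *Crym* (0.299), *Prr9* (0.324) and *Krt85* (0.331 log2 units), of which *Krt35* and *Krt85* are hair keratins and *Krt73* is a keratin of the inner root sheath. *S100a7a* was the 85th nearest gene to *S100a3* (0.639) and the 215th nearest to *S100a8* (2.28). The gene of PAD3, the deiminase that modifies S100A3 in the hair cuticle, was also highest in ft/ftMyD88-/- replicates 1 and 4. *Padi3* was at 39.6, 27.1, 30.2 and 42.1 CPM in ft/ft and at 305.4, 41.3, 63.2 and 156.5 CPM in ft/ftMyD88-/- (log2 fold change 2.03, SE 0.668, edgeR adjusted p = 0.0765). The part of hair follicle content in the values of *S100a3* and *S100a7a* was not tested.

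*S100a14* and *S100a16*, members that epithelia express broadly, were abundant in every library. *S100a14* was at 976.6, 752.0, 691.0 and 772.4 CPM in ft/ft and at 1003, 961.6, 988.3 and 1313 CPM in ft/ftMyD88-/-. All but ft/ft replicate 1 were below the whole second group, and that library lay above its replicate 2. *S100a14* rose by 0.42 on the log2 scale (SE 0.134, edgeR adjusted p = 0.0413; 798.0 ± 124.0 against 1066 ± 165.0 CPM, SD, n = 4), and it was also called by DESeq2 (0.0115) and limma voom (0.0406). The exact permutation test gave p = 0.0571. The call held in 4 of the 8 fits with 1 library left out and was lost without ft/ft replicate 2 (adjusted p = 0.0929), 3 (0.118) or 4 (0.103) or without ft/ftMyD88-/- replicate 4 (0.0895).

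The pattern of *S100a16* resembled that of *S100a14*. Its levels were 497.9, 447.6, 396.5 and 417.0 CPM in ft/ft and 568.6, 529.0, 470.2 and 718.8 CPM in ft/ftMyD88-/-, and only ft/ftMyD88-/- replicate 3 fell within the range of ft/ft. The log2 fold change of 0.38 (SE 0.13) just missed edgeR's threshold (adjusted p = 0.0534), passed that of DESeq2 (0.0236) and missed that of limma voom (0.0609), with p = 0.0571 in the exact permutation test. In 2 of the 8 fits with 1 library left out *S100a16* was called. Beside them, 5 of 7 basal keratinocyte genes were called lower and 0 higher, and of 10 differentiation genes 4 were called lower (*Krt10*, *Lor*, *Flg2*, *Dsg1a*) and 1 higher (*Casp14*). Over all tested genes, edgeR called 12.3% lower and 10.9% higher.

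The 4 remaining members did not pass the test with edgeR under TMM, with DESeq2 or with limma voom. *S100a6* (calcyclin) was at 428.2, 350.9, 362.1 and 326.0 CPM in ft/ft and at 359.5, 398.3, 390.3 and 563.7 CPM in ft/ftMyD88-/- (log2 fold change 0.22, SE 0.141, edgeR adjusted p = 0.279). Its groups overlapped, and edgeR with library size as the only scaling called it (log2 fold change 0.40, adjusted p = 0.0407). *S100a10* (p11), which binds annexin A2 without needing calcium, was at 320.1, 257.6, 241.7 and 242.8 CPM in ft/ft and at 193.3, 296.4, 242.8 and 288.3 CPM in ft/ftMyD88-/- (log2 fold change -0.06, SE 0.14, edgeR adjusted p = 0.801). *S100a11*, a partner of annexin A1 that becomes part of the cornified envelope, was at 340.5, 385.0, 301.7 and 311.8 CPM in ft/ft and at 269.1, 352.9, 266.0 and 363.2 CPM in ft/ftMyD88-/- (log2 fold change -0.10, SE 0.126, edgeR adjusted p = 0.619). With library size as the only scaling both signs turned (0.12 for *S100a10* and 0.08 for *S100a11*), and that of *S100a10* also turned without ft/ft replicate 1 (0.05) or ft/ftMyD88-/- replicate 1 (0.06).

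*S100a4*, a protein of motile fibroblasts and leukocytes that binds non-muscle myosin, had only 14, 7, 10 and 5 counts in ft/ft and 14, 14, 16 and 6 counts in ft/ftMyD88-/- (0.401 ± 0.208 against 0.51 ± 0.104 CPM, SD, n = 4; log2 fold change 0.40, SE 0.414, edgeR adjusted p = 0.525). A difference of the fitted size was not detectable at this depth. In the GENCODE M21 annotation of GRCm38.p6, 302 of its 584 exonic bases (51.7%) are shared with *Gm42674* on the same strand, and counting with HTSeq at default settings leaves out reads that fall on 2 genes. The annotation the authors used is not given in the sources used here, so this low level may not stand for the gene's expression. Fibroblast genes themselves were plentiful, with a summed CPM of 14151 to 29284 in ft/ft and 7138 to 10617 in ft/ftMyD88-/-. Most of that sum was collagen (ft/ft means of 4804 CPM for *Col1a1*, 6033 for *Col1a2* and 7582 for *Col3a1*). Of the 8 genes, edgeR called these 3 lower and *Thy1* higher (log2 fold change 0.67, edgeR adjusted p = 0.0262), beside 12.3% and 10.9% of all tested genes. *Dcn* (-0.40), *Pdgfrb* (-0.45), *Pdgfra* (0.31) and *Lum* (0.09) were not called.

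**Figure D3:**
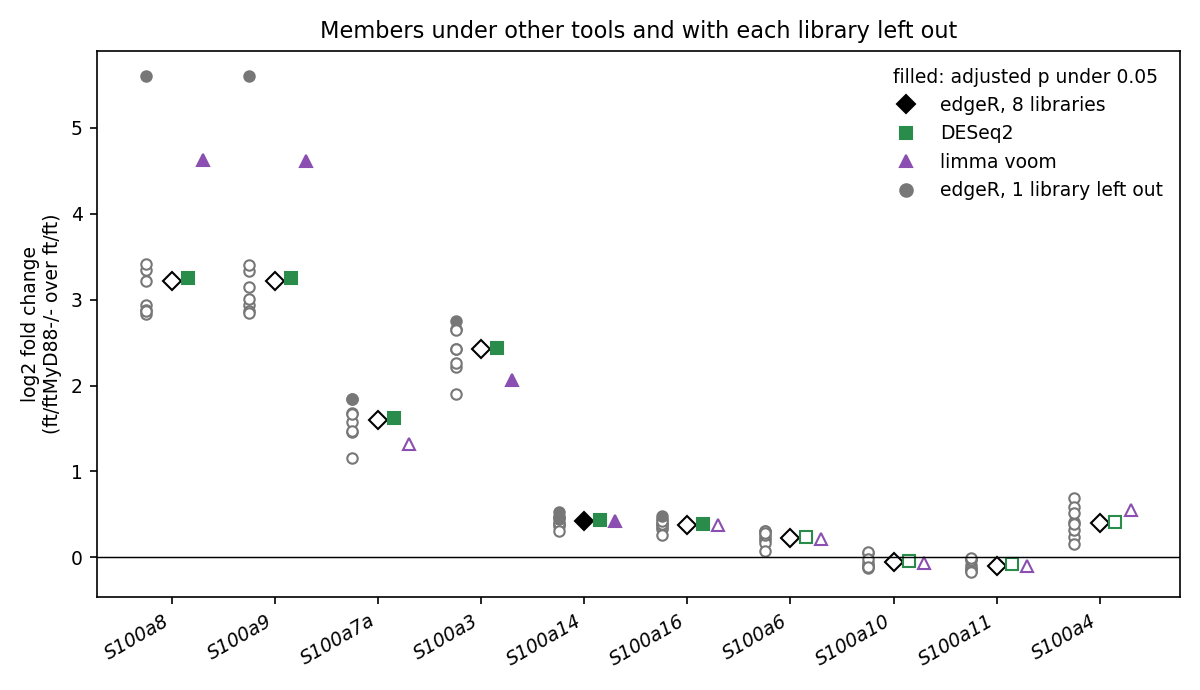
Fitted log2 fold change of ft/ftMyD88-/- over ft/ft for each member, from edgeR with 8 libraries (diamonds), DESeq2 (squares), limma voom (triangles) and edgeR with 1 library left out (circles), filled where the adjusted p was under 0.05. *S100a8* and *S100a9* are open at 3.22 and filled at 5.61 and 5.60 once ft/ft replicate 2 is left out, and *S100a14* is filled for all 3 tools.

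For an order of levels between members, CPM was divided by the exonic bases not shared with another gene, which assumes that counts scale with transcript length. This holds for the TruSeq and HTSeq route that the study describes and not for the Cell Ranger route named in the labels, so the order depends on which of them made the table. The bases are those of all annotated exons of a gene together, 5399 for *S100a3* and 1377 for *S100a7a*. These 2 genes had ft/ft means of 9.45 and 12.3 CPM, so their distance on this scale depends largely on the gene models. On this scale, the order in ft/ft was *S100a11* (655.0 CPM per kb), *S100a14* (462.1), *S100a16* (272.0), *S100a6* (268.3), *S100a10* (219.1), *S100a9* (75.1), *S100a8* (37.2), *S100a7a* (8.93), *S100a3* (1.75) and *S100a4* (1.42). In ft/ftMyD88-/- it was *S100a9* (704.8), *S100a14* (617.5), *S100a11* (612.1), *S100a16* (353.5), *S100a8* (349.4), *S100a6* (313.1), *S100a10* (210.6), *S100a7a* (27.2), *S100a3* (9.39) and *S100a4* (1.81 CPM per kb). *S100a9* thus stood at rank 6 and rank 1 and *S100a8* at rank 7 and rank 5. Without ft/ft replicate 2, *S100a9* fell to 14.6 CPM per kb in ft/ft, still rank 6, and *S100a8* to 7.16, rank 8 and below *S100a7a* (8.4). Within ft/ftMyD88-/-, the first 3 genes lay within the SD of *S100a9* (253.9 CPM per kb) of each other, as *S100a16* and *S100a8* did within the SD of *S100a8* (166.9). In ft/ft, *S100a16* and *S100a6* differed by less than the SD of either (27.3 and 31.9 CPM per kb), *S100a9* and *S100a8* by less than the SD of either (121.5 and 60.3), and *S100a3* and *S100a4* likewise (0.631 and 0.737). The coefficient of variation of CPM over the ft/ft libraries was 162.0% for *S100a8* and 161.7% for *S100a9* but 10% to 15.5% for *S100a6*, *S100a10*, *S100a11*, *S100a14* and *S100a16*.

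Along the chromosome, 3 of the 4 members with the highest fold changes were neighbours and *S100a3* lay apart from them. Of the members, 8 lie in a group of 12 S100 genes that spans 185 kb of chromosome 3 (GRCm38.p6), and *S100a11* and *S100a10* lie 2.82 Mb beyond it. *S100a3* (chr3:90560356-90602706), with a log2 fold change of 2.42, sits between the members *S100a16* (chr3:90537254-90543151; 0.38) and *S100a4* (chr3:90603770-90606045; 0.40). The non-member *S100a2* (chr3:90590247-90591508; -0.37) lies within its span. *S100a6* (chr3:90612894-90614414; log2 fold change 0.22) is followed by *S100a7a* (chr3:90651925-90658130; 1.60) and then by *S100a8* and *S100a9* (3.22 each).

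**Figure D4:**
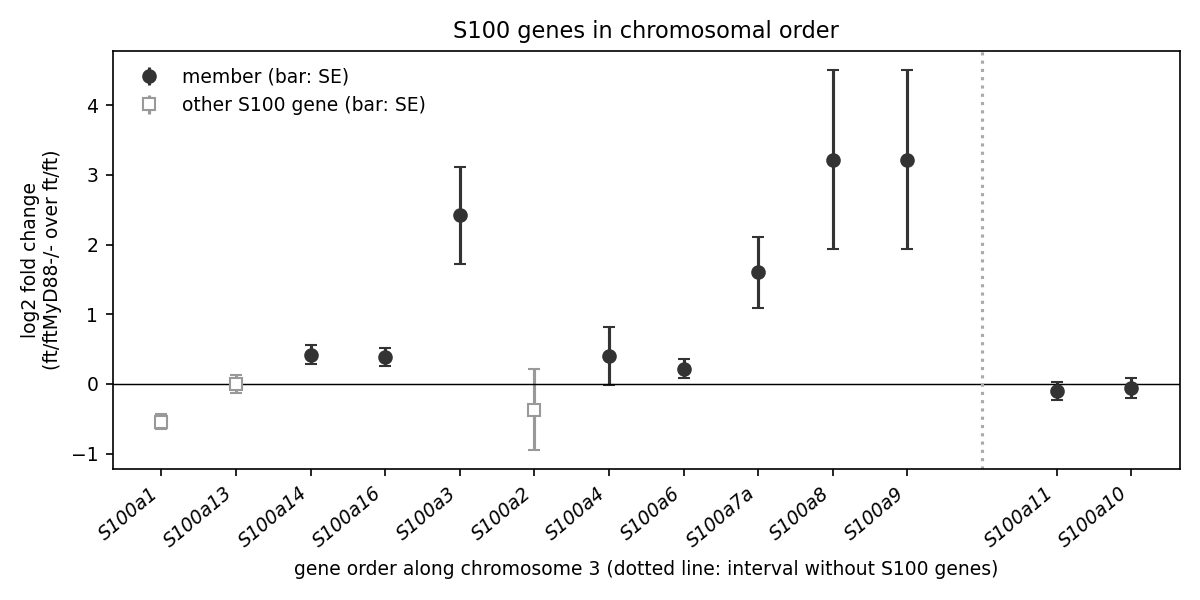
Fitted log2 fold change (ft/ftMyD88-/- over ft/ft, bars are SE) of the S100 genes in their order along chromosome 3, members filled and other S100 genes open, spaced by order and not by distance. *S100a7a*, *S100a8* and *S100a9* at the end of the group and *S100a3* in its middle have the 4 highest values, and *S100a1* at its start is below 0 at -0.54.

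Of the other S100 genes, 4 were tested, and edgeR called 2 lower and 0 higher in the libraries labelled ft/ftMyD88-/-, beside 12.3% of all tested genes called lower. *S100a1*, which serves calcium handling in heart and skeletal muscle, was at 154.4, 126.8, 125.5 and 147.2 CPM in ft/ft and at 88.9, 93, 87.7 and 112.6 CPM in ft/ftMyD88-/-. The groups did not overlap, as was so for 14.2% of tested genes in this direction, and it fell by 0.54 on the log2 scale (SE 0.106, edgeR adjusted p = 0.00402). *S100b*, a gene of Schwann cells and other neural crest derivatives, fell by 0.84 (SE 0.226, edgeR adjusted p = 0.0193), from 5.71 ± 1.71 to 3.16 ± 0.742 CPM (SD, n = 4), and lost the call without ft/ft replicate 3 (adjusted p = 0.0562) or ft/ftMyD88-/- replicate 4 (0.0599). Skeletal muscle genes were lower beside them, with 7 of 8 called lower and a summed CPM of 7856 to 10818 in ft/ft and 3064 to 5880 in ft/ftMyD88-/-. Their part in the difference in *S100a1* was not tested. *S100a13* (log2 fold change 0.00, edgeR adjusted p = 0.988) and *S100a2* (-0.37, adjusted p = 0.686) were not called, *S100g* had 9 counts in all and was not tested, and *S100a5* and *S100z* were not analysed here.

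Among 16 genes of S100 receptors and binding partners, edgeR called 1 higher and 3 lower, 4 of 16 beside 23.3% of all tested genes in either direction. *Cacybp*, the calcyclin-binding protein, was the one called higher (58.5 ± 9.62 against 86.5 ± 15.8 CPM, SD, n = 4; log2 fold change 0.56, SE 0.141, edgeR adjusted p = 0.0138). *Anxa2*, whose protein forms a tetramer with S100A10, was at 1569, 1574, 1441 and 1354 CPM in ft/ft and at 993.9, 1339, 1065 and 1090 CPM in ft/ftMyD88-/-, without overlap, and fell by 0.40 on the log2 scale (SE 0.113, edgeR adjusted p = 0.0225). *Anxa2* lost its call in 5 of the 8 fits with 1 library left out, those without ft/ft replicate 1 or 2 or without ft/ftMyD88-/- replicate 1, 3 or 4 (edgeR adjusted p of 0.0519 to 0.0678). *Anxa5* fell by 0.48 (SE 0.105, edgeR adjusted p = 0.00706) and *Cd36*, a scavenger receptor, fell by 0.47 (SE 0.151, adjusted p = 0.0411). The call of *Anxa5* held in all 8 fits with 1 library left out, and that of *Cd36* held in 2, without ft/ft replicate 3 or ft/ftMyD88-/- replicate 3 (adjusted p up to 0.121 in the others). *Anxa1*, the partner of S100A11, had a log2 fold change of 0.29 (edgeR adjusted p = 0.0736). With counts scaled by library size alone, edgeR called *Tlr4*, *Alcam*, *Anxa1* and *Cacybp* (4 of 16, beside 29.2% of all genes in either direction) and none of the 3 lower genes. *Tlr4*, the receptor of calprotectin whose signal runs through MyD88, stood at 13.6 ± 0.474 against 15.6 ± 2.17 CPM (log2 fold change 0.20, edgeR adjusted p = 0.244). *Ager*, which encodes RAGE, had 103 counts over all 8 libraries and was not called (adjusted p = 0.616).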

How the data were processed

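Periocular skin RNA was measured in 8 libraries. The authors deposited raw counts per gene, without normalization. Their methods describe polyA-selected TruSeq libraries, alignment to GRCm38.p6 by HISAT and tophat2, and counting by HTSeq at default settings, whereas the sample labels and the submitters' processing notes give total RNA, a fixed-tissue protocol and Cell Ranger. Versions, annotation and strand setting are not given in the sources used here. Groups came from the sample labels, and 0 columns of per-sample values were left unused. Genes with at least 10 counts in all (20454) entered edgeR 4.0.16 under R 4.3.3 (robust glmQLFit, glmQLFTest, TMM, no covariate, two-sided, Benjamini-Hochberg, threshold 0.05). The SE came from the log2 fold change and F. The common biological coefficient of variation was 0.182. Total counts of 15802957 to 29255129 set the precision, and floors cover counting error only. Whether reads carried molecular identifiers is not given in the sources used here. The fit was tested on simulated data. Replicates were no duplicates (chi-square over its degrees of freedom, 16.3 or more in each pair).

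The members and all gene lists were chosen with earlier results of these data known. Named were every member, the other S100 genes, receptors and partners, IL-17 ligands and receptors, defining members of marker lists where a result needed them, the label checks, and the 5 genes with a mean of at least 50 counts nearest in profile to *S100a8* and to *S100a3*. Alternatives were DESeq2 1.42.0, limma 3.58.1 (voom), RLE or no normalization beyond library size, other filters, stricter thresholds, the replicate block and left-out libraries. Exonic bases came from GENCODE M21 and sequences from RefSeq, both on GRCm38.p6; 8 of 10 members had a promoter entry.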

Additional observations from a re-analysis of the deposited data

Results flagged for a closer look

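Within-group spread singled out 4 values among 60 groups of 4 libraries examined with Dixon's gap test, where chance gives about 1 in 20. In ft/ft replicate 2, *S100a8* reached 88.4 CPM against 1.53 to 8.96 CPM in the other 3 ft/ft libraries, a gap of 0.915 of the group's range. *S100a9* was at 134.1 CPM in the same library against 2.91 to 13.5 CPM in the others (0.92 of the range). *S100a14* was at 1313 CPM in ft/ftMyD88-/- replicate 4 against 961.6 to 1003 CPM in the other 3 libraries of that label (0.882). *S100b* was at 8.26 CPM in ft/ft replicate 3 against 4.58 to 5.19 CPM in the other ft/ft libraries (0.836).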

How the results depend on the processing

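The count of members called higher by edgeR (1) was 2 with RLE normalization, 5 with library size only, 4 with filterByExpr, 6 with DESeq2, 4 with limma voom, 0 at a log2 fold change of at least 1 and 0 at an adjusted p under 0.01, and 0 to 3 with 1 library left out. Further settings were added after seeing the data: without ft/ft replicate 2 and ft/ftMyD88-/- replicate 1 the count was 2, and without ft/ftMyD88-/- replicates 1 and 4 it was 0. The count of members called lower was 0 in all of these settings. Called partners (4) were 7 with DESeq2, 4 higher and 3 lower, beside 15.2% and 14.7% of its genes. They were 0 and 1 under the stricter thresholds, 2 under each of the added settings and 2 to 5 with 1 library left out. Shares of all genes under the stricter thresholds, the added settings and most left-out fits were not computed, so the counts there have no background. Called other S100 genes (2) were 1 with library size only, 0 and 1 under the stricter thresholds, 1 without ft/ftMyD88-/- replicates 1 and 4, and 1 to 2 with 1 library left out. Members without overlap (3, beside 12.5% of tested genes) were 6 with library size only and 3 to 5 with 1 library left out. These counts were also added after seeing the data. The share of all genes without overlap was not computed under those settings, so the higher counts are not read as a result about the members. Library size only shifted the median log2 fold change of all genes by 0.18. With 1 library left out, the log2 fold change was -0.13 to 0.06 for *S100a10* and -0.17 to -0.01 for *S100a11*. It turned positive for *S100a10* with library size only (0.12), without ft/ft replicate 1 (0.05), without ft/ftMyD88-/- replicate 1 (0.06) and under the added settings (0.05 and 0.03), and for *S100a11* with library size only (0.08) and without ft/ft replicate 2 and ft/ftMyD88-/- replicate 1 (0.05). The cause of these moves was not tested.

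Replicates 1 to 4 of both groups share numbers, but the deviations of same-numbered libraries correlated at -0.146, 0.0251, 0.0146 and -0.0169, so the numbers did not pair them. With the replicate block the count of members called higher was 1, then *S100a3* (log2 fold change 2.12, edgeR adjusted p = 0.0433), while *S100a14* had an adjusted p of 0.0527.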
